A study of Homo sapiens with 10 samples.

Results

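The genes described here encode the 3 GATA transcription factors of the heart, GATA4, GATA5 and GATA6, and the 2 FOG cofactors, ZFPM1 (FOG1) and ZFPM2 (FOG2). They were taken by symbol and identifier, and all 5 were found among the 78932 gene identifiers of the count table and among the 21033 genes tested. RNA was sequenced from cardiomyocytes made from H1 cells, a widely used line of human embryonic stem cells. On day 9 of differentiation the cells of 5 samples received 50 nM of a GapmeR against the RNA called CLIPPER, and those of 5 samples received 50 nM of a control GapmeR, all with the same lipid reagent. RNA was collected 48 hours later. A GapmeR is an antisense oligonucleotide that directs RNase H to cut the RNA it pairs with. The labels call the control group WT and name no other genetic change, and all libraries come from 1 cell line. CLIPPER is not a gene name in the annotation used, and how far it was depleted was not analysed here.

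GATA factors bind DNA at GATA sequences through a pair of zinc fingers. The FOG proteins do not bind DNA at these sites themselves. They attach to the amino-terminal finger of a GATA factor and can repress or assist it, in part by recruiting the NuRD chromatin complex and CtBP corepressors. In mice, loss of Gata4, of its contact with FOG, or of Zfpm2 disturbs formation of the heart.

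Libraries held 32879710 to 45052044 counts, so that 1 count stood for 0.0213 to 0.0315 CPM (counts scaled to a common library size of 1e6 after TMM normalisation). Of all tested genes 79.7% passed the threshold of 0.05 on the adjusted p, with 40.1% higher and 39.6% lower in the knockdown. Higher and lower are relative to the TMM scaling, with which 8441 genes were higher and 8332 lower. With upper-quartile scaling 9566 were higher and 7277 lower. On the first principal component of log2 CPM, which carried 85.2% of the variance, knockdown replicate 2 stood at -49.5 and replicate 1 at -93.3. The other knockdown libraries lay between -119 and -140, and the controls between 102 and 108. The cardiomyocyte identity given in the labels was present in the RNA: TNNT2, cardiac troponin T, averaged 1497 ± 216 CPM in knockdown and 4432 ± 251 CPM in control libraries (SD, n = 5 each), and all 15 cardiomyocyte markers looked for were detected and tested. Nothing in the labels says that replicates were separate differentiations, so p-values measure the spread between these samples, which may be technical.

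GATA4, GATA6, ZFPM2 and ZFPM1 were lower after knockdown and GATA5 was higher. In all 5 genes every knockdown library lay on the same side of every control library. Such separation was common in this table: the groups did not overlap in 67.5% of tested genes, with the knockdown higher in 33.7% and lower in 33.8%, and a called change of at least 2-fold was seen upward in 24.3% and downward in 24.2%. The members had 1 gene higher and 4 lower, at least 2-fold in all but ZFPM1. In bulk RNA, fewer cells of a type and less RNA per cell cannot be told apart.

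**Figure D1:**
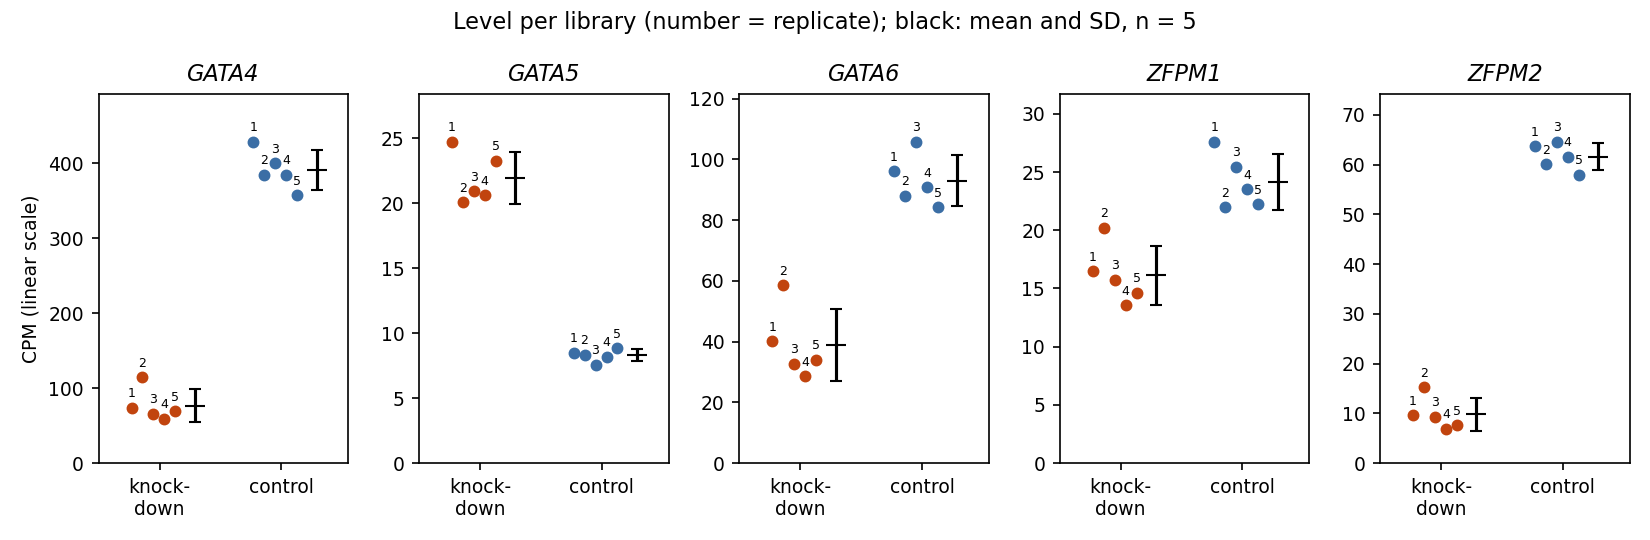
CPM of GATA4, GATA5, GATA6, ZFPM1 and ZFPM2 in each of 5 CLIPPER knockdown libraries (red) and 5 control libraries (blue), on linear axes that start at 0. Small numbers give the replicate, and black marks give the mean and SD of each group. GATA5 is the gene whose knockdown points lie above its control points, and knockdown replicate 2 is the highest knockdown library in the other 4 panels.

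GATA4 is the most studied cardiac GATA factor and acts with NKX2-5 and TBX5 at many heart genes. It lies on chromosome 8, 11676959 to 11760002 on the plus strand (ENSG00000136574, GRCh38). Knockdown replicates 1 to 5 held 74.0, 115, 66.1, 59.0 and 69.7 CPM, and control replicates 1 to 5 held 429, 385, 399.9, 385 and 357 CPM. The groups were far apart, and knockdown replicate 2 was the highest of its group. GATA4 fell 5.1-fold (log2 fold change -2.35 ± 0.167 SE, adjusted p = 1.6e-07 in the quasi-likelihood test of edgeR). Its spread was wider after knockdown, with a coefficient of variation of 28.7% in knockdown and 6.67% in control libraries. In the controls GATA4 stood at the 98.5th percentile of all tested genes by CPM.

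GATA6, the closest cardiac relative of GATA4, is needed in mice for outflow tract development and is also a factor of endoderm and smooth muscle. It lies on chromosome 18, 22169589 to 22202528 on the plus strand (ENSG00000141448). Knockdown replicates 1 to 5 had 40.2, 58.6, 32.8, 28.7 and 34.1 CPM, against 96.2, 88.0, 106, 90.9 and 84.3 CPM in control replicates 1 to 5. The highest knockdown value, again in replicate 2, remained below the lowest control value. GATA6 fell 2.39-fold (log2 fold change -1.26 ± 0.17 SE, adjusted p = 2.2e-05 in the edgeR test).

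A long non-coding gene, GATA6-AS1, overlaps the start of GATA6 on the opposite strand. It spans 22164886 to 22169878 on chromosome 18 (ENSG00000266010) and moved the other way. GATA6-AS1 had 23.0, 22.5, 20.1, 19.8 and 21.5 CPM in knockdown replicates 1 to 5 and 12.5, 17.2, 15.8, 14.2 and 17.0 CPM in control replicates 1 to 5. The groups did not overlap. GATA6-AS1 rose 1.39-fold (log2 fold change 0.48 ± 0.103 SE, adjusted p = 0.00098 in the edgeR test). The genes share 94 exonic bases on opposite strands, and the strand setting of the counting is not given in the sources used here, so reads from the shared bases may be counted for either gene. A further antisense gene at the end of GATA6, ENSG00000266283, shares 321 exonic bases with it. It averaged 0.321 ± 0.118 CPM in knockdown and 0.692 ± 0.314 CPM in control libraries (SD, n = 5 each) and fell with GATA6 (log2 fold change -1.12 ± 0.353 SE, adjusted p = 0.011 in the edgeR test), although its groups overlapped.

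The RefSeq start regions of GATA6 and GATA6-AS1 are shown because the RNAs of this pair on opposite strands changed in opposite directions. In RefSeq (GRCh38.p14) their first bases lie 621 bases apart, with GATA6-AS1 starting at 22168968. In the annotation used for names and exons GATA6-AS1 starts at 22169878, inside GATA6, so its window is not at the start of that longer gene model. Each window runs from 250 bases before to 50 bases after the start of the gene, 5′ to 3′ on the strand of the gene. For GATA6 it is chr18:22169339-22169638 on the plus strand, and for GATA6-AS1 chr18:22168919-22169218 on the minus strand.
GATA6: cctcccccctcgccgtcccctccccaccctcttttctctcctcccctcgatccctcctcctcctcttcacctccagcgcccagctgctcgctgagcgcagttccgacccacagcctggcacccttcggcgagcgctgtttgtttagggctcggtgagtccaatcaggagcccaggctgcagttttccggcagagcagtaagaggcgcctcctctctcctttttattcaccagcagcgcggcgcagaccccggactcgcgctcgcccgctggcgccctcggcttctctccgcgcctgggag
GATA6-AS1: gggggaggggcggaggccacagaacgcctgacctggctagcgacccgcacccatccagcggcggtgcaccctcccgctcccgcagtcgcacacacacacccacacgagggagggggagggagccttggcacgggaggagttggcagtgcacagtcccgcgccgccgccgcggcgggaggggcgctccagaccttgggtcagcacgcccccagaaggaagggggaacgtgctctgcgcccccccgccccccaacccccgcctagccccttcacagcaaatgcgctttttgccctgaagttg
The windows do not overlap. Both are GC-rich, with 66.7% G and C for GATA6 and 71.3% for GATA6-AS1, against a median of 58.7% over 35116 such windows, and each holds 25 CG dinucleotides against a median of 14. GATA sequences were searched on both strands, namely the word AGATAA, the word TGATAA, the word AGATAG and the word TGATAG, which would have been printed in capitals. Neither window holds one, and 8769 of the 35116 windows do, which describes these letters only. Among the 5 members the promoter table holds GATA6 and ZFPM1.

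GATA5, the least abundant of the cardiac GATA genes in the controls per exon length, is known in mice for a role in endocardial and aortic valve development. It lies on chromosome 20, 62463497 to 62475995 on the minus strand (ENSG00000130700). Knockdown replicates 1 to 5 held 24.7, 20.1, 20.9, 20.6 and 23.3 CPM, and control replicates 1 to 5 held 8.51, 8.34, 7.58, 8.19 and 8.86 CPM. The lowest knockdown library, here replicate 2, was above the highest control library. GATA5 rose 2.64-fold (log2 fold change 1.40 ± 0.0915 SE, adjusted p = 8.5e-08 in the edgeR test). Its knockdown libraries were more alike than those of GATA4 and GATA6, with a coefficient of variation of 9.08% in knockdown and 5.68% in control libraries.

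ZFPM2 encodes FOG2, the FOG protein of the heart and the partner of GATA4 in mouse heart development. It lies on chromosome 8, 104590733 to 105804539 on the plus strand (ENSG00000169946). Its knockdown values were 9.65, 15.3, 9.36, 6.94 and 7.69 CPM in replicates 1 to 5, and its control values 63.7, 60.2, 64.6, 61.6 and 58.0 CPM in replicates 1 to 5. ZFPM2 fell 6.27-fold, the largest change of the 5 members (log2 fold change -2.65 ± 0.185 SE, adjusted p = 1.4e-07 in the edgeR test). Knockdown replicate 2 was again the highest of its group. The antisense gene ZFPM2-AS1, which shares no exonic bases with ZFPM2, had 59 counts over all 10 libraries and was not tested.

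ZFPM1 encodes FOG1, first known as the partner of GATA1 in red blood cells and platelets. It lies on chromosome 16, 88453280 to 88537031 on the plus strand (ENSG00000179588). Knockdown replicates 1 to 5 had 16.5, 20.2, 15.7, 13.5 and 14.6 CPM, against 27.6, 21.96, 25.4, 23.5 and 22.2 CPM in control replicates 1 to 5. The gap was narrow, with knockdown replicate 2 at 20.2 CPM just under control replicate 2. ZFPM1 fell 1.5-fold, the smallest change of the members (log2 fold change -0.58 ± 0.117 SE, adjusted p = 0.00055 in the edgeR test). The log2 fold change was -0.39 with upper-quartile scaling, which moved all genes up by 0.20, and the call held.

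Knockdown libraries differed among themselves. By GATA4 and by GATA6 they ranked replicate 2, 1, 5, 3 and 4 from high to low, the order of the first principal component counted from the controls. ZFPM2 and ZFPM1 ranked them 2, 1, 3, 5 and 4. Against the control mean, GATA4 kept 0.294 of its level in replicate 2 and 0.151 in replicate 4, and GATA6 kept 0.629 and 0.308 in the same libraries. GATA5 gave another order, 1, 5, 3, 4 and 2, within a range from 2.42 to 2.98 times the control mean. Without knockdown replicates 1 and 2 the log2 fold changes were -2.60 for GATA4, -1.56 for GATA6, -2.95 for ZFPM2, -0.73 for ZFPM1 and 1.37 for GATA5.

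Per kb of merged exons the GATA factors became more equal. In knockdown libraries GATA4 averaged 17.3 ± 4.95, GATA6 10.2 ± 3.1 and GATA5 8.36 ± 0.76 CPM per kb, followed by ZFPM1 with 2.62 ± 0.414 and ZFPM2 with 1.22 ± 0.408 (SD, n = 5 each). In control libraries the order was GATA4 with 88.0 ± 5.87, GATA6 with 24.5 ± 2.21, ZFPM2 with 7.67 ± 0.334, ZFPM1 with 3.92 ± 0.385 and GATA5 with 3.17 ± 0.18 CPM per kb (SD, n = 5 each). GATA5 thus stood above both FOG genes after knockdown and below them in the controls, and the FOG genes changed places. Neighbours in the control order did not overlap. In the knockdown order GATA4, at 13.3 to 25.8 CPM per kb, overlapped GATA6, at 7.54 to 15.4, and GATA6 overlapped GATA5, at 7.65 to 9.44 CPM per kb. With canonical transcript lengths the order of the 5 genes was the same in each group, GATA4, at 17.3 to 33.6 CPM per kb in knockdown libraries, no longer overlapped GATA6, at 7.91 to 16.2, and ZFPM2 averaged 1.97 CPM per kb in knockdown and 12.4 CPM per kb in control libraries. The sum over the 3 GATA genes was 28.7 to 48.9 CPM per kb in knockdown and 106.0 to 125.1 CPM per kb in control libraries.

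**Figure D2:**
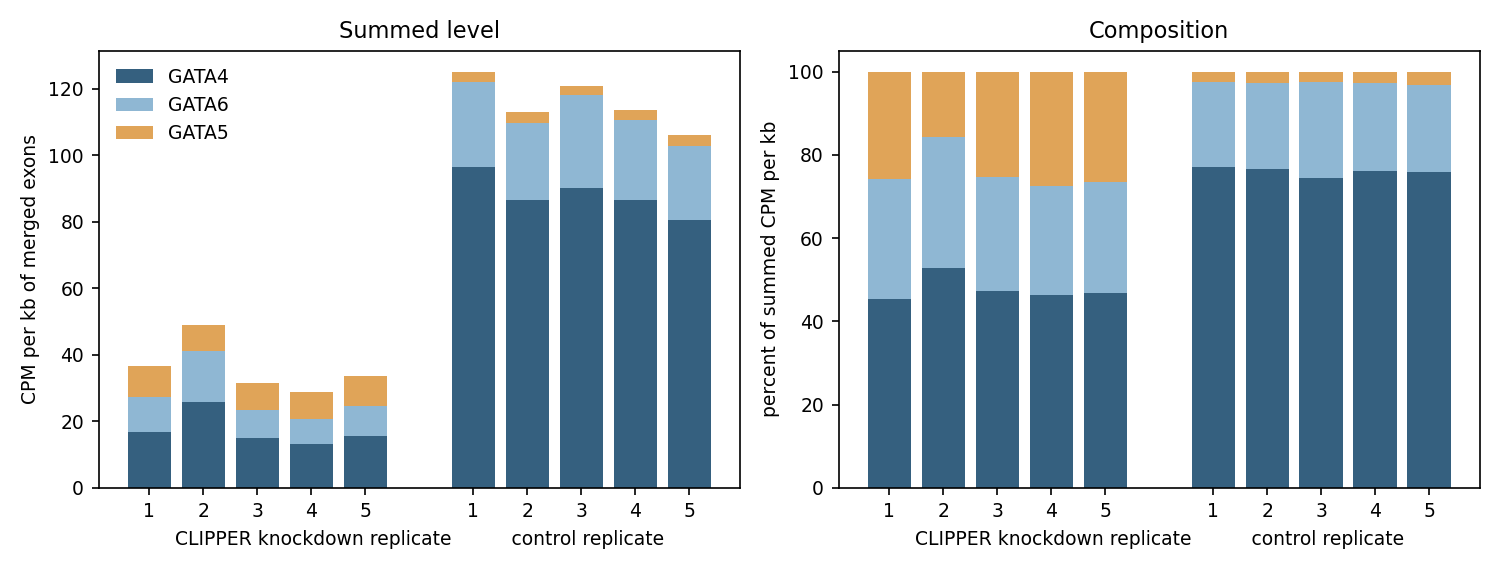
Left, GATA4 (dark blue), GATA6 (light blue) and GATA5 (orange) stacked in CPM per kb of merged exons for each knockdown and control library; right, the same as percent of their sum. The stacks are lower in the 5 knockdown libraries, and the orange share is 15.7% to 27.4% there and 2.4% to 3.19% in the 5 controls.

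Ratios between members of the same library do not depend on how libraries were scaled. GATA4 made up 47.7% ± 2.94 of the summed GATA level in knockdown and 76.1% ± 0.993 in control libraries, GATA6 28.2% ± 2.11 in knockdown and 21.2% ± 1.11 in control libraries, and GATA5 24.1% ± 4.8 in knockdown and 2.75% ± 0.295 in control libraries (SD, n = 5 each). The ratio of GATA4 to GATA6 was 1.57 to 1.76 in knockdown and 3.23 to 3.81 in control libraries. That ratio varied little among the knockdown libraries although the level of each gene did. The ratio of GATA4 to ZFPM2 was 12.8 to 16.4 in knockdown and 11.2 to 12.2 in control libraries, with the knockdown ratios above the control ratios. ZFPM2 to ZFPM1 was 0.393 to 0.58 in knockdown and 1.77 to 2.1 in control libraries. None of these ratios was tested, and their values across genes depend on the exon lengths used.

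Gene span moved with the direction of change across the transcriptome. Coding genes spanning 10 to 30 kb had a median log2 fold change of 0.27, with 48.9% higher and 29.1% lower, those of 30 to 100 kb a median of -0.48, with 23.2% higher and 57.0% lower, and the 59 tested coding genes over 1000 kb a median of -2.29, with 91.5% lower. GATA5 spans 12.5 kb, GATA6 32.9 kb, GATA4 83.0 kb, ZFPM1 83.8 kb and ZFPM2 1214 kb (486 kb for its canonical transcript). By annotated span, ZFPM1 and ZFPM2 lay within the middle 50% of the log2 fold changes of their class, which ran from -1.14 to 0.20 and from -2.77 to -1.57. GATA4 and GATA6 lay below that range for 30 to 100 kb, and GATA5 above the range of -0.45 to 0.93 for 10 to 30 kb. By its canonical transcript ZFPM2 would belong to the class of 300 to 1000 kb and lie below its middle 50%, which ran from -2.50 to -1.52. The part of gene span in these changes was not tested.

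**Figure D3:**
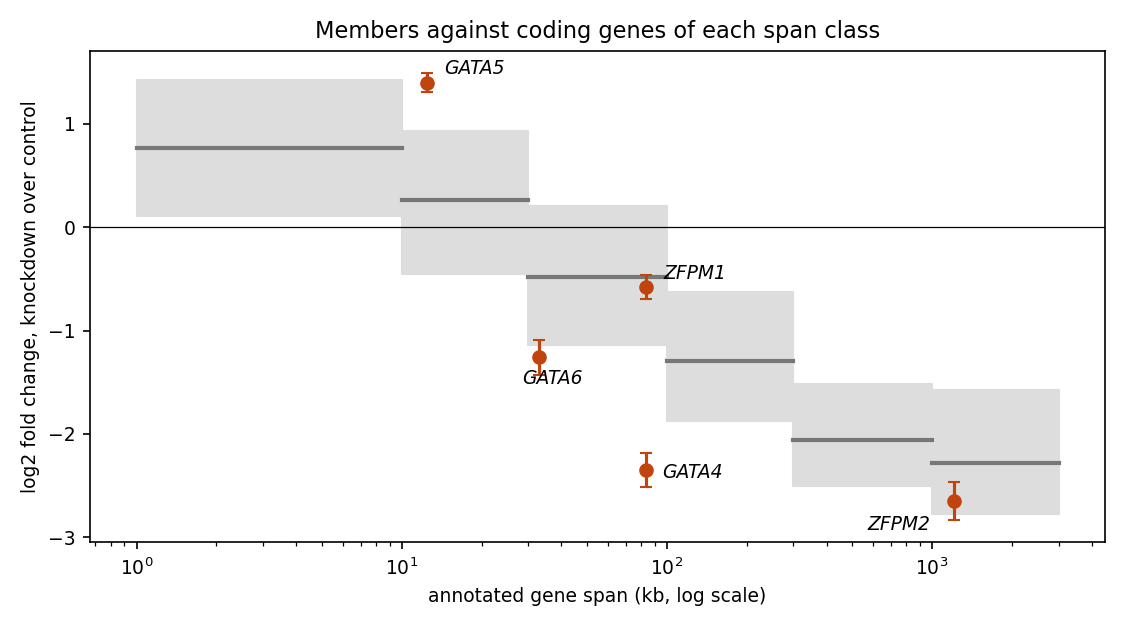
Log2 fold change, knockdown over control, against annotated gene span in kb on a log axis. Red points are the 5 members with their SE; grey bands and lines give the middle 50% and the median of tested coding genes in 6 span classes. GATA5 lies above its band, GATA4 and GATA6 below theirs, and ZFPM1 and ZFPM2 inside when placed by annotated span.

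Genes with profiles nearest to each member were sought among coding genes with a mean of at least 1 CPM, by the root mean square difference of log2 CPM centred on each gene's own mean over the 10 libraries. Nearest to GATA4 were CDYL (0.0612 log2 units), DIS3L2 (0.0708) and ITGA3 (0.0769). Nearest to GATA6 were OSBPL8 (0.0557), AFAP1 (0.0699) and CMYA5 (0.0716), and nearest to GATA5 ZNF517 (0.0853), UBXN7 (0.0935) and PWWP2B (0.0937). ZFPM2 lay nearest to ZER1 (0.076), RPTOR (0.0886) and DCAF6 (0.0905), and ZFPM1 to RPRD2 (0.0435), BICD2 (0.058) and RNF149 (0.0701). Among the members, GATA4 and ZFPM2 were the most alike pair, at 0.185 log2 units, and GATA5 and ZFPM2 the least, at 2.07. These differences are set mainly by the size of the change between the groups.

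Of the other GATA factors, GATA2, an endothelial and blood factor, fell 1.67-fold, to 3.09 ± 0.207 CPM in knockdown libraries against 5.15 ± 0.482 CPM in control libraries (SD, n = 5 each, adjusted p = 6.9e-05 in the edgeR test). TRPS1, an atypical GATA repressor, fell 1.36-fold, a call lost with upper-quartile scaling (log2 fold change -0.45, and -0.25 with that scaling). GATA1 had 0 counts in all knockdown libraries, which allows up to 0.0154 CPM (3 counts over the group), and 9 in all controls. GATA3 had 15 counts in knockdown and 29 in control libraries, and neither GATA1 nor GATA3 was tested. A list of other GATA-type zinc finger genes had 11 tested, 1 of them ARID5B, an ARID-domain gene that has no such finger and did not pass. Of the 11, 8 fell, 1 rose and 2 did not pass, with a median log2 fold change of -0.72 against 0.0056 for all tested genes. Of all tested genes 39.6% were lower and 40.1% higher. The median was -0.48 for tested coding genes of 30 to 100 kb and -1.30 for those of 100 to 300 kb. List medians here and below were not matched for gene span. RERE, a nuclear receptor corepressor, fell 2.03-fold.

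FOG proteins recruit the NuRD complex and CtBP. Of 17 such genes 10 fell, 6 rose and 1 did not pass, with a median log2 fold change of -0.62. Across all tested genes 39.6% were lower and 40.1% higher. The MTA subunits split. MTA2 rose 3.89-fold, to 266.5 ± 45.6 CPM in knockdown against 68.5 ± 2.49 CPM in control libraries, while MTA1 fell 2.52-fold, to 42.5 ± 4.52 CPM in knockdown against 107 ± 5.43 CPM in control libraries (SD, n = 5 each). The histone-binding subunits RBBP4 and RBBP7 rose 1.97-fold and 1.41-fold. GATAD2A, a GATA-finger subunit of NuRD, fell 2.92-fold, and the corepressor gene CTBP2 fell 3.58-fold. CTBP1, chosen with its values known, fell 3.63-fold. By annotated span CTBP1 (38.9 kb) and CTBP2 (177 kb) belong to classes in which 57.0% and 82.7% of tested coding genes were lower.

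GATA4 works with other cardiac factors, and of 26 listed partners 18 fell, 5 rose and 3 did not pass (median log2 fold change -0.66). The shares over all tested genes were 39.6% lower and 40.1% higher. MEF2A, a MADS-box factor, fell 2.68-fold and the acetyltransferase gene CREBBP 1.82-fold. MEF2D rose 1.62-fold. The nuclear receptor genes NR2F2 and NR2F1 rose 2.86-fold and 3.94-fold. NR2F2, whose protein also binds FOG2 and whose gene overlaps an antisense gene, reached 15.8 ± 3.55 CPM in knockdown against 5.53 ± 1.04 CPM in control libraries, and NR2F1 1.1 ± 0.448 CPM in knockdown against 0.271 ± 0.0931 CPM in control libraries (SD, n = 5 each). NKX2-5, TBX5, TBX20 and HAND2, chosen with their values known, had log2 fold changes of -0.45, -0.97, -0.98 and -0.98. TBX2 and ISL1 of the same list, also chosen with their values known, went the other way. Their log2 fold changes were 0.62 and 0.49 (adjusted p = 0.0041 and 0.0039 in the edgeR test), and the groups overlapped for TBX2. NKX2-5 passed with an adjusted p of 0.033 in the edgeR test although its groups overlapped, and HAND1 did not pass (log2 fold change 0.24, adjusted p = 0.14 in the edgeR test).

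**Figure D4:**
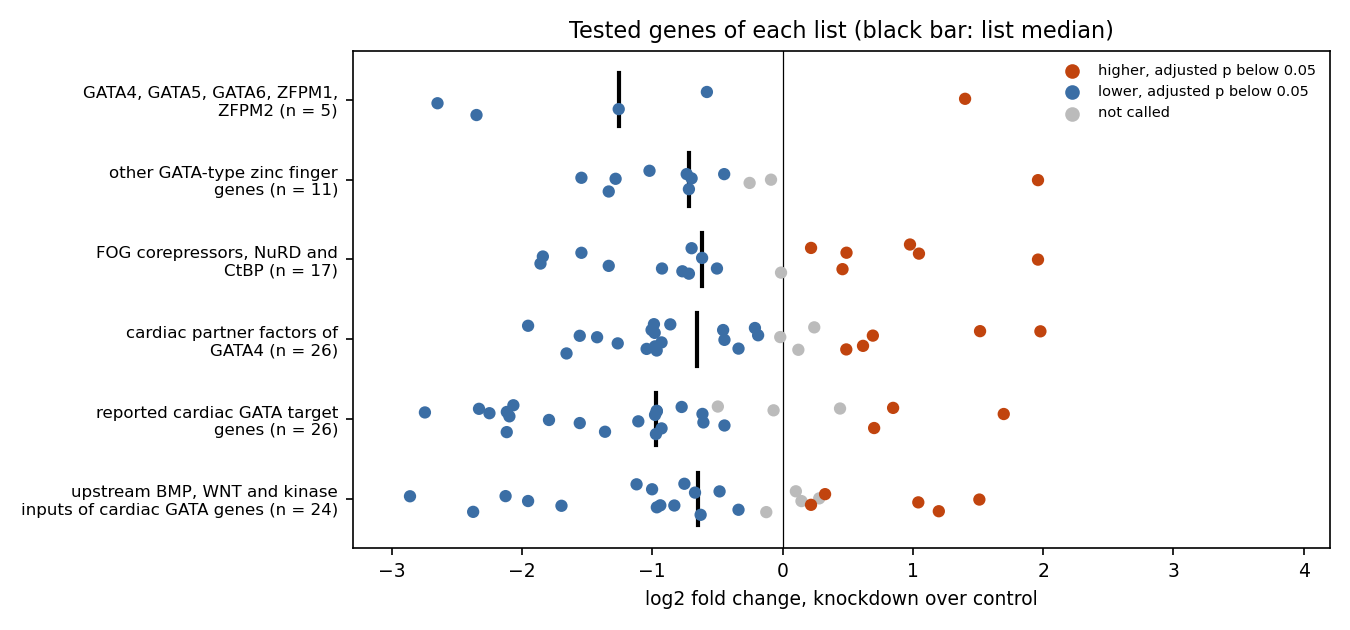
Log2 fold change, knockdown over control, of every tested gene in the members and in 5 lists of related genes. Red points passed as higher, blue as lower and grey did not pass; black bars are list medians, which lie between -1.26 for the members and -0.62 for FOG corepressors.

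Of 26 tested genes reported as cardiac GATA targets, 20 fell, 3 rose and 3 did not pass, with a median log2 fold change of -0.97. Over all tested genes 39.6% were lower and 40.1% higher. HAND2, NKX2-5 and TBX5 are among the genes that also stand in the list of partners, so their changes are counted in both. The cyclin gene CCND2, which overlaps an antisense gene, fell 4.34-fold, the muscarinic receptor gene CHRM2 4.34-fold and SEMA3C, a guidance ligand known in mice as a GATA6 target, 4.76-fold. PLXNA2, a plexin receptor for SEMA3C that was chosen with its values known, fell 5.03-fold. CHRM2 fell to 15.1 ± 5.02 CPM in knockdown against 65.6 ± 5.49 CPM in control libraries (SD, n = 5 each). CX3CL1, a chemokine, rose 3.24-fold, the cyclin-dependent kinase gene CDK4 1.63-fold and the Notch effector gene HEY1 1.8-fold. The natriuretic peptide genes, classic GATA4 targets chosen with their values known, overlapped between the groups. NPPA had 1727 ± 694 CPM in knockdown and 2437 ± 419 CPM in control libraries and did not pass (adjusted p = 0.091 in the edgeR test), and NPPB, at 30.4 ± 14.5 CPM in knockdown against 130.1 ± 89.9 CPM in control libraries (SD, n = 5 each), was called lower (adjusted p = 0.0015 in the edgeR test).

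Among 24 genes of BMP, WNT and kinase signals that act on cardiac GATA genes, 15 fell, 5 rose and 4 did not pass (median log2 fold change -0.65). The shares over all tested genes were 39.6% lower and 40.1% higher. SMAD1 is among the genes also counted as partners. BMPR2, the type II BMP receptor, fell 5.19-fold and CTNNB1, which encodes beta-catenin, 4.37-fold. SMAD5, a transducer of BMP signals whose gene overlaps an antisense gene, rose 2.85-fold, the inhibitory SMAD7 2.3-fold and the kinase gene MAPK3 1.25-fold. SMAD1, the closest relative of SMAD5 and chosen with its values known, moved the other way, to 4.14 ± 1.84 CPM in knockdown against 16.2 ± 0.715 CPM in control libraries (SD, n = 5 each).

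In the genome around the members, 37 genes within 250 kb were tested, of which 12 rose, 16 fell and 9 did not pass. Passing was about as common over all tested genes, at 79.7%, with 40.1% higher and 39.6% lower. Near GATA4, NEIL2, a DNA repair glycosylase 9.64 kb downstream, rose 1.58-fold, CTSB, the protease cathepsin B, fell 1.7-fold, and FDFT1, squalene synthase, had a log2 fold change of -0.14 that did not pass. ENSG00000286985, a long non-coding gene 27.6 kb upstream of GATA4, rose 2.25-fold, to 6.12 ± 1.51 CPM in knockdown against 2.71 ± 0.632 CPM in control libraries (SD, n = 5 each). All 14 tested genes near GATA5 passed, 7 in each direction. The laminin gene LAMA5 fell 2.08-fold and the ribosomal protein gene RPS21 rose 1.82-fold. HRH3, a histamine receptor gene 243 kb away, rose to 2.36 to 14.7 CPM in knockdown libraries, with 1531 counts in all, against 11 counts over all control libraries. ENSG00000275437, which lies within CABLES2 on the same strand and is therefore uncertain, rose to 18.4 ± 3.04 CPM in knockdown against 0.86 ± 0.154 CPM in control libraries, while CABLES2 fell 1.4-fold. Of 13 tested genes near ZFPM1, CYBA, an NADPH oxidase subunit, and SNAI3 rose 6.09-fold and 2.17-fold, 7 fell, among them ZC3H18 (2.4-fold) and ZNF469 (1.65-fold), and 4 did not pass. Beside ZFPM2 only LRP12 was tested. Its start lies 1.48 kb from the annotated start of ZFPM2 on the opposite strand, and it had 39.8 ± 1.97 CPM in knockdown and 38.2 ± 2.51 CPM in control libraries (SD, n = 5 each). LRP12 did not pass (log2 fold change 0.06 ± 0.0754 SE, adjusted p = 0.46 in the edgeR test) but was called higher with upper-quartile scaling (log2 fold change 0.26).

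**Figure D5:**
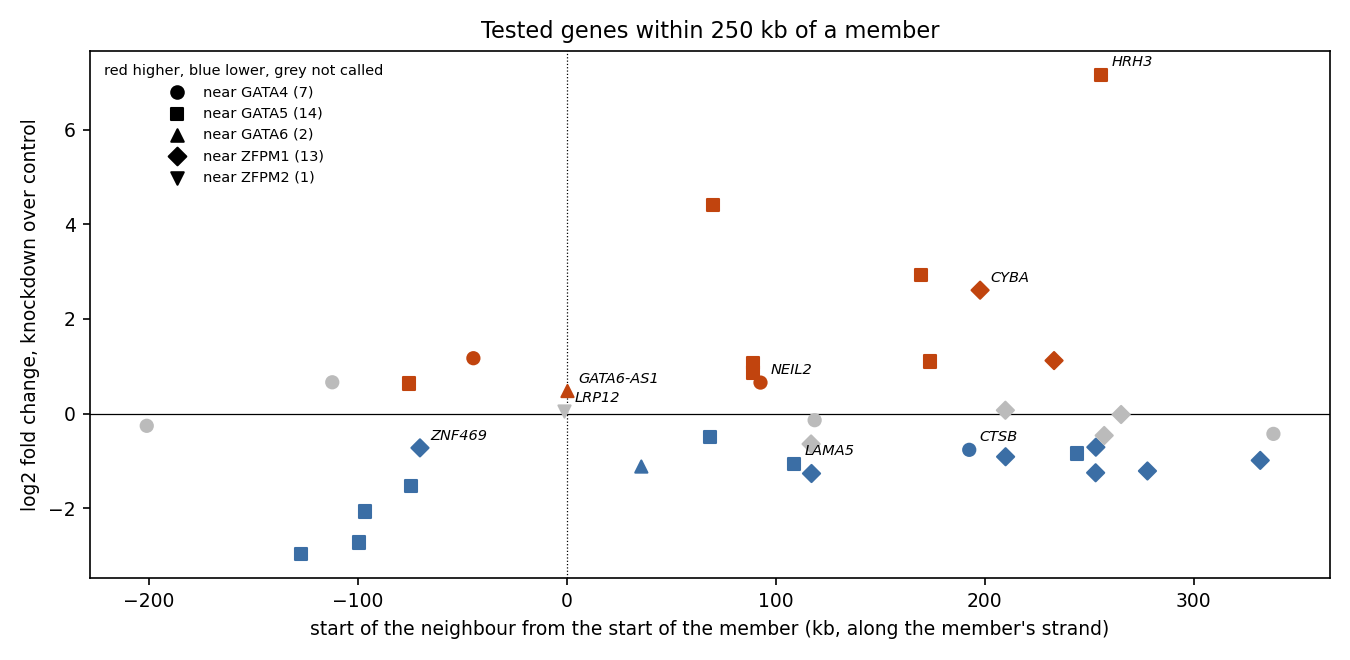
Log2 fold change, knockdown over control, of the 37 tested genes within 250 kb of a member against the distance between starts in kb, counted along the member's strand. Marker shape gives the member and colour the call. Genes on both sides of 0 stand near GATA4, GATA5, GATA6 and ZFPM1.

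Markers of other cell types were looked at because GATA and FOG genes are used outside cardiomyocytes. The counts below stand beside 39.6% lower and 40.1% higher over all tested genes. Of 15 cardiomyocyte markers 14 fell and none rose, with a summed level of 17880 to 28550 CPM in knockdown and 44850 to 60890 CPM in control libraries. NKX2-5 is among the markers also counted as GATA targets. Smooth muscle markers had 9 of 12 lower and none higher, with sums of 975 to 1530.0 CPM in knockdown and 2093 to 3539 CPM in control libraries. Endothelial and endocardial markers had 7 of 9 tested lower and none higher (sums 36.0 to 56.8 CPM in knockdown and 108 to 129.6 CPM in control libraries), while the defining genes PECAM1, at 0.126 CPM in knockdown and 0.237 CPM in control libraries, and CDH5, at 0.228 CPM in knockdown and 0.273 CPM in control libraries, were near 0. CLDN5, a tight junction gene of the same list that was not tested and was chosen with its values known, went the other way, with 202 counts in all knockdown and 9 in all control libraries. Endoderm markers had 3 of 6 tested higher and 1 lower, with sums of 17.0 to 31.9 CPM in knockdown and 14.0 to 16.5 CPM in control libraries. APOA1 gave 14.9 ± 3.65 CPM of that sum in knockdown and 6.03 ± 0.658 CPM in control libraries. FOXA2, HNF4A and AFP averaged under 0.05 CPM in both groups, and GSC and TTR were at 0 counts in the controls. Epicardial and stromal markers had 2 of 11 tested higher and 7 lower (sums 955 to 1121 CPM in knockdown and 1267 to 1387 CPM in control libraries). In these sums the collagen genes COL3A1 and COL1A1 averaged 351 and 371 CPM in knockdown and 625 and 377 CPM in control libraries. WT1, at 0.243 CPM in knockdown and 0.461 CPM in control libraries, and TCF21, with 1 and 9 counts, were near 0. COL1A1, WT1 and TCF21 were chosen with their values known. Blood cell markers had 1 of 3 tested higher and 1 lower (sums 1.84 to 2.3 CPM in knockdown and 2.35 to 3.11 CPM in control libraries). Pluripotency markers had 4 of 6 tested higher and 1 lower (sums 45.03 to 54.7 CPM in knockdown and 17.6 to 22.4 CPM in control libraries). LIN28B alone averaged 41.5 ± 3.99 CPM in knockdown and 11.6 ± 1.26 CPM in control libraries (SD, n = 5 each). POU5F1 averaged 0.0839 CPM in knockdown and 0.1 CPM in control libraries, and NANOG 0.00864 CPM in knockdown and 0.0212 CPM in control libraries. The part of these cell types in the changes of the members was not tested.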

How the data were processed

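The authors deposited 1 table for 10 libraries of total RNA, with whole read counts by gene and no normalisation. Per the labels' protocols and the submitters' processing notes, the authors removed ribosomal RNA, made strand-specific libraries, used Trim Galore 0.65 for trimming, STAR 2.7.0 for alignment on GRCh38 and HTSeq for counting. The HTSeq strand setting is not given in the sources used here. Replicates were not pooled. The design text names GENCODE 38. Names, spans and exons were taken here from GENCODE 44 on the same assembly, which matched 61481 of 78932 identifiers. Of the other 17451, 17397 carry numbers above the highest in release 44, so the counting annotation may differ from the one used here. They held 0.25% to 0.408% of counts, and 1060 were tested without a name. All columns were mapped through the sample titles.

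Groups and replicate numbers came from the titles. Counts were fitted with edgeR 4.0.16 in R 4.3.3 (filterByExpr, TMM, robust quasi-likelihood F test, Benjamini-Hochberg over 21033 genes, threshold 0.05), on the whole table. SE was derived as the absolute log2 fold change over the root of F. CPM use TMM library sizes, and log2 profiles a prior count of 2. Replicate libraries differed by more than sampling noise (chi-square over its degrees of freedom at least 4.13). The fit was checked on simulated data in which 67, 67 and 66 of 19443 tested genes were changed 1.5-fold, 2-fold and 4-fold. Of these, 41.8%, 88.1% and 100% were recovered. Far fewer genes changed there than the 79.7% called here, so the simulation does not show how the fit behaves with changes this broad.

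The members, lists and tests were chosen with earlier results of these data known. Named genes are the members, GATA1, GATA2, GATA3 and TRPS1, tested genes within 250 kb, the 3 nearest profiles of each member, and up to 3 rising and 3 falling genes of each list by smallest p. Some genes that this rule takes are not reported here, some neighbours and list genes are given by count only, and genes outside this rule are marked as chosen with their values known. The floor for 0 counts covers counting error alone. Alternatives were other scalings, DESeq2 1.42.0, limma-voom (limma 3.58.1), other filters and dispersions, removal of mitochondrial genome genes, the replicate number as a block, canonical transcript lengths, and leaving libraries out. Figures were drawn with matplotlib 3.10.9.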

Additional observations from a re-analysis of the deposited data

Results flagged for a closer look

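Among the 10 groups of 5 libraries formed by the members, 1 held a library far from the others: GATA4 in knockdown replicate 2 had 114.8 CPM, and the other knockdown libraries 59.0 to 74.0 CPM. The gap to the next library was 0.732 of the range of the group, above the limit of 0.71 for 5 libraries, which chance passes in about 1 of 20 groups. Without that library the log2 fold change of GATA4 was -2.55, against -2.35 with it.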

How the results depend on the processing

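The 5 members kept their direction and their call under all 20 alternative settings. The highest adjusted p in edgeR, DESeq2 or limma was 0.0036, for ZFPM1 with upper-quartile scaling. Over all settings the log2 fold change ran from -2.60 to -2.16 for GATA4, from 1.35 to 1.6 for GATA5, from -1.56 to -1.07 for GATA6, from -0.73 to -0.39 for ZFPM1 and from -2.95 to -2.46 for ZFPM2. Leaving out 1 library at a time gave -2.55 to -2.26, 1.35 to 1.43, -1.46 to -1.16, -0.69 to -0.52 and -2.88 to -2.54 for the same genes in that order. With canonical transcript lengths in place of merged exons, the GATA4 share of the summed GATA level was 53.6% in knockdown and 79.9% in control libraries, the GATA6 share 25.5% in knockdown and 17.9% in control libraries, and the GATA5 share 20.9% in knockdown and 2.22% in control libraries, by construction of the lengths. Among neighbours that did not pass, FDFT1 was at 0.0598 with upper-quartile scaling, MVD at -0.0555 without control replicate 3, with a range of -0.0555 to 0.1422 over libraries left out, and ENSG00000260121 at 0.0062 with DESeq2 size factors, 0.1743 with upper-quartile scaling, 0.0103 in DESeq2 and 0.0319 with a minimum mean of 1 CPM, with a range of -0.1164 to 0.0657 over libraries left out. The cause was not tested. Counts of called markers moved by over 1.5 times in several small lists. Endothelial markers had 1 higher in place of 0 under 8 settings, and smooth muscle markers 1 higher in place of 0 with upper-quartile scaling. Epicardial and stromal markers had 4 lower in place of 7 under 4 settings (upper-quartile scaling, a minimum mean of 1 CPM, and without knockdown replicate 4 or 5). Endoderm markers had 4 lower in place of 1 with no filter beyond 1 count, and 2 without knockdown replicates 1 and 2. Pluripotency markers had 2 higher in place of 4 with a minimum mean of 1 CPM. Blood cell markers, with 1 in each direction, had 2 higher with no filter beyond 1 count, 2 lower in limma-voom, without knockdown replicates 1 and 2 and without knockdown replicate 2 alone, and 0 in both directions with a minimum mean of 1 CPM. Without a filter beyond 1 count, 20167 genes were called, against 16773, because more genes were tested.

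Replicate numbers are shared between the groups, but same-numbered libraries did not deviate together (correlations of -0.17 to 0.221, with 2 of 5 knockdown libraries closest to their own number). With the replicate number as a block, on the log2 scale, the GATA4 change was -2.39, the GATA5 change 1.40, the GATA6 change -1.30, the ZFPM1 change -0.59 and the ZFPM2 change -2.70, all called in edgeR, and 8214 genes were higher and 8211 lower.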
